A study of Taeniopygia guttata with 39 samples.

Results

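Angiogenic factors and endothelial markers were followed in HVC, the forebrain song nucleus, of adult female canaries given testosterone. The set held 7 genes, the secreted factors VEGFC and ANGPT1, the membrane-bound Notch ligand DLL4, the receptor FLT1, the surface protein EMCN and the transcription factors SOX18 and TAL1. A gene entered when a row of the deposited table carried a RefSeq transcript of that zebra finch gene, and the brightest row per gene was to be used. Each gene had 1 row, so 7 of 26061 rows and 7 of the 2236 genes with a symbol were members. Birds received a subcutaneous 7-mm tube filled with testosterone for 1 h (6 birds), 3 h (5 birds), 8 h (5 birds), 3 d (6 birds), 7 d (6 birds) or 14 d (6 birds), and 5 control birds received an empty tube. All 39 birds were non-breeding females kept on 9 h of light and 15 h of dark. The labels called the 7 d and 14 d groups singing, and the other 5 groups, controls included, non-singing. HVC was dissected from brain cryosections, and RNA of 1 sample was put on 1 Affymetrix array. The labels number the arrays as biological replicates, which is all they say of separate birds. The organism field of the labels named zebra finch while the series text named canary, and how well canary RNA matches the row of each gene was not tested. All 6 durations were set against the same 5 control birds.

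Blood vessels grow when VEGF ligands act on tyrosine kinase receptors of endothelial cells, the cells that line vessels. A leading tip cell carries DLL4, which signals through Notch to its neighbours and limits their sprouting, while ANGPT1 acts on the receptor TEK and stabilises vessels. SOX18 and TAL1 are transcription factors of the endothelial and blood lineages, and EMCN is a sialomucin of the endothelial surface, known mostly from capillaries and veins in mouse and human. These roles come mostly from work in mammals and zebrafish. In adult female canaries, testosterone is known to act on VEGF signalling and on endothelial cell division in HVC, and blood vessel growth there goes along with the recruitment of new neurons.

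Values are log2 signals as deposited, and a difference of 1 is a 2-fold change. The array medians ran between 7.49 and 7.91. All 14 d arrays had medians (7.78 to 7.91) above all control arrays (7.50 to 7.70). Over all rows the median change from control was 0.12 at 1 h, 0.16 at 3 h, -0.00 at 8 h, -0.01 at 3 d, 0.10 at 7 d and 0.22 at 14 d. The main results are therefore also given on a scale on which each array was centred on its own median. The array of 3 h replicate 2 stood apart, with a median correlation to the other arrays of 0.89 (Pearson's r over all rows), while no other array was below 0.96, so 3 h values are given with and without it. Numbers in the array titles also fell into 3 separate ranges, 1 with the 1 h, 3 h, 7 d and 14 d arrays, 1 with the 8 h and 3 d arrays and 1 with the control arrays, so duration and number range cannot be told apart in a comparison with control, nor between 3 h and 8 h or between 3 d and 7 d. What the numbers stand for is not given in the labels.

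The rows differed in how far they stood above the dim end of the arrays. SOX18 lay between the 61.2 and 88.5 percentile of the rows of an array, DLL4 between 19.9 and 52.3, VEGFC between 21.9 and 40.4, FLT1 between 16.6 and 35.3 and EMCN between 8.73 and 30.6. ANGPT1 lay between the 7.75 and 19.8 percentile and TAL1 between 5.90 and 12.8. The averages of EMCN, ANGPT1 and TAL1 over all arrays were below the 25th percentile. The table has no detection calls, so whether these dim rows were above background is unknown.

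**Figure D1:**
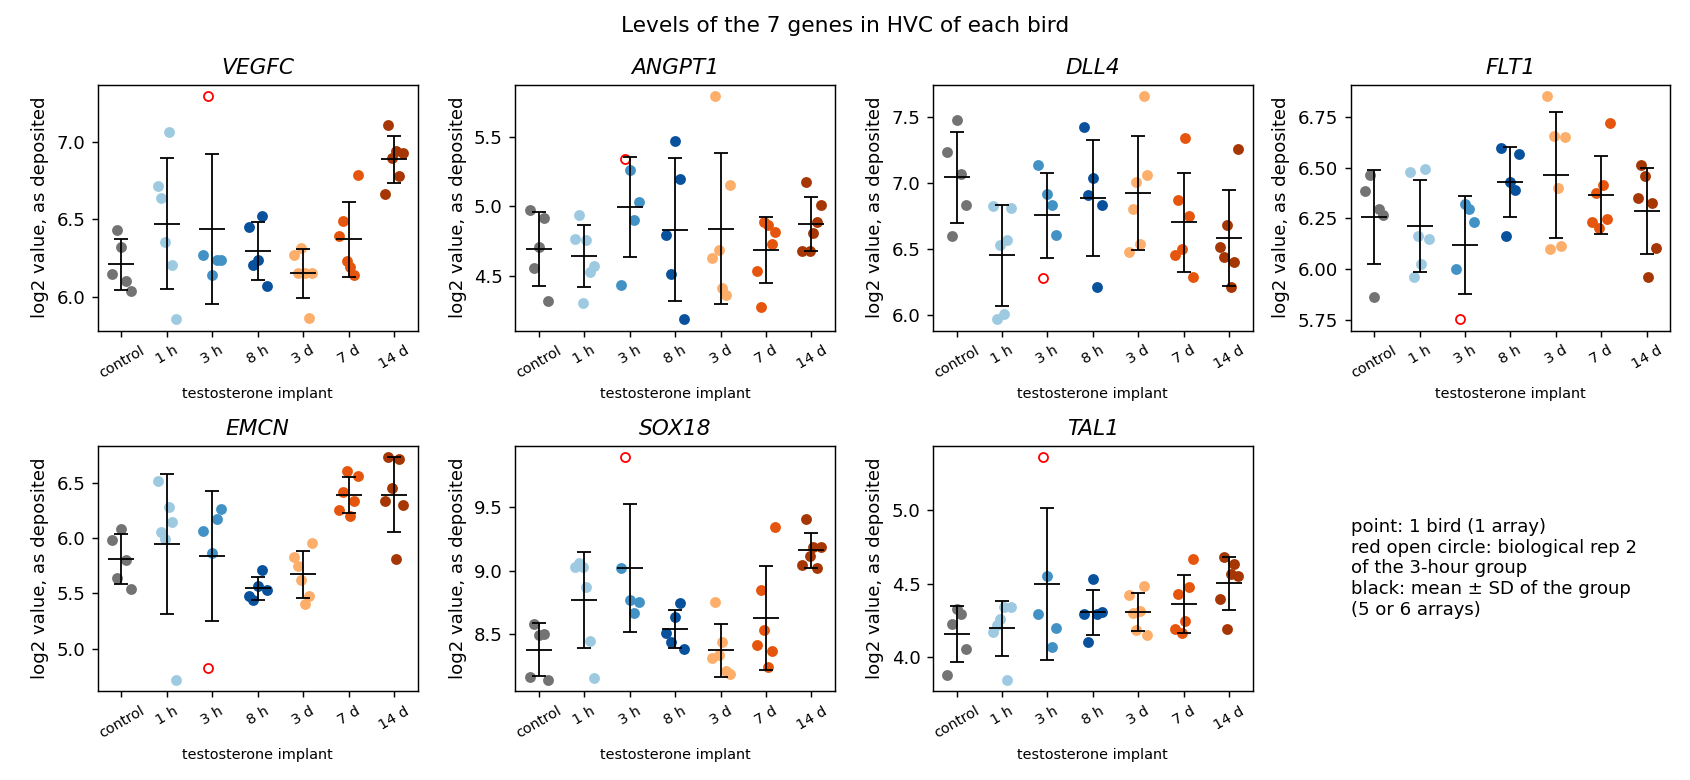
Log2 signal of each of the 7 genes (1 panel per gene, each with its own vertical axis) in every array, by group from control to 14 d on the horizontal axis; points are arrays, black marks are group means ± SD, and a red open circle is 3 h replicate 2. VEGFC and SOX18 have all 14 d arrays above all control arrays, EMCN has all 7 d arrays above all control arrays, and 3 h replicate 2 is the highest or lowest array of its group in all 7 panels.

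Of the 42 comparisons with control (7 genes, 6 durations), 5 passed at an adjusted p under 0.05 (limma, Benjamini-Hochberg over all 26061 rows of a comparison). At 14 d VEGFC, SOX18, EMCN and TAL1 rose, which is 4 of 7 genes where 39.1% of all rows were called higher and 10.9% lower (50% in all). At 3 h SOX18 rose, 1 of 7 genes where 19.8% of all rows were called higher, and that call needed replicate 2. It was also lost, with a log2 change of 0.59, with the L or R letter of the array titles as a term (4 R and 1 L at 3 h, 1 R and 4 L in control). Of all 26061 rows, 4191 were called at 3 h with the letter as a term and 7459 without it. At the other durations, none of the 7 genes passed, at 1 h (8.44% of all rows called), 8 h (7.21%), 3 d (1.05%) or 7 d (7.87%). An unadjusted p under 0.05 was reached there by DLL4 and SOX18 at 1 h and by EMCN at 7 d. The 1 h change of SOX18 passed without 1 h replicate 6 (0.51, adjusted p = 0.0326), and the share of all rows in that fit was not counted. The median change of the 7 genes from control was 0.04 at 1 h, 0.23 at 3 h, 0.14 at 8 h, -0.00 at 3 d, 0.16 at 7 d and 0.35 at 14 d. Over any duration (the moderated F test), VEGFC (adjusted p = 0.00455), EMCN (0.00281) and SOX18 (0.00115) passed, 3 of 7 genes where 67.9% of all rows passed. RNA came from whole tissue pieces, so fewer cells of a type and less RNA per cell cannot be told apart in any of these values.

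VEGFC, a secreted growth factor of the VEGF family that acts on the receptor FLT4, was highest at 14 d. The 14 d birds lay at 6.66 at the lowest, 6.91 at the median and 7.11 at the highest, against 6.15, 6.43, 6.33, 6.11 and 6.04 in the 5 control birds. All 14 d birds were above all control birds, as was the case for 27.7% of all rows, and above all 8 h and 3 d birds. VEGFC rose by 0.67 ± 0.17 (SE) at 14 d, a 1.60-fold change with a 95% interval of 0.33 to 1.02 on the log2 scale (adjusted p = 0.00178). On the centred scale the 14 d change was 0.45 (adjusted p = 0.0127, with 20.3% of all rows called higher). There 14 d still lay above control and above 3 d without overlap. The shares of all rows without overlap on that scale, and against 8 h and 3 d, were not counted.

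VEGFC averaged 6.21 ± 0.16 in control birds (SD; n = 5 for control, 3 h and 8 h and n = 6 for the others), 6.47 ± 0.42 at 1 h, 6.44 ± 0.48 at 3 h, 6.30 ± 0.19 at 8 h, 6.15 ± 0.16 at 3 d, 6.37 ± 0.24 at 7 d and 6.89 ± 0.15 at 14 d. In order of means, from low to high, the groups were 3 d, control, 8 h, 7 d, 3 h, 1 h and 14 d, and each neighbouring pair in that order overlapped. Without replicate 2 the 3 h mean was 6.22 ± 0.05 (n = 4) and stood between control and 8 h. At 1 h the birds were spread between 5.86 and 7.06, a range that overlapped with every other group, and the change of 0.26 did not pass (adjusted p = 0.272). VEGFC rose by 0.51 ± 0.16 (SE) at 14 d over 7 d (adjusted p = 0.0312, with 11.6% of all rows called higher). On the centred scale that step was 0.39 (adjusted p = 0.0574). As deposited, it missed the threshold in 7 of the 39 fits without 1 array (14 d replicates 2, 3 and 6, and 7 d replicates 1, 3, 4 and 5). Both groups of that step were labelled singing and had title numbers of the same range.

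ANGPT1, the ligand that activates the receptor TEK, passed at no duration. It averaged 4.69 ± 0.27 in control birds (SD, n as above), 4.64 ± 0.22 at 1 h, 4.99 ± 0.36 at 3 h, 4.83 ± 0.52 at 8 h, 4.84 ± 0.55 at 3 d, 4.68 ± 0.24 at 7 d and 4.87 ± 0.19 at 14 d. The range of control birds overlapped with that of every testosterone group. The 14 d change was 0.18, with a 95% interval of -0.24 to 0.60 (adjusted p = 0.481). The spread was widest at 3 d, between 4.36 and 5.80.

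DLL4, the Notch ligand of tip cells, had means below control at every duration, but no difference passed. The 1 h birds ran between 5.97 and 6.83 with a median of 6.55, and the 14 d birds between 6.21 and 7.26 with a median of 6.48. The 5 control birds had 7.24, 6.60, 7.48, 7.07 and 6.83, and both groups overlapped with them. DLL4 differed from control by -0.59 ± 0.22 (SE) at 1 h (adjusted p = 0.0741) and by -0.46 ± 0.22 at 14 d (adjusted p = 0.0801). The other differences from control were -0.29 at 3 h, -0.16 at 8 h, -0.12 at 3 d and -0.34 at 7 d, and since all 6 share the same control birds their common sign is not independent.

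DLL4 was a gene whose call turned on the scale. After centring, DLL4 fell by 0.69 at 14 d (adjusted p = 0.0227), where 22.8% of all rows were called lower, and its F test passed (adjusted p = 0.0395, with 60% of all rows passing). Without 3 h replicate 2 the uncentred 1 h difference passed as well (adjusted p = 0.0489, with 5.87% of all rows called lower), as it did without control replicate 2 or 1 h replicate 6. At 14 d DLL4 passed without control replicate 2 (-0.57) or 14 d replicate 6 (-0.59). For the fits without control replicate 2, 1 h replicate 6 or 14 d replicate 6, the shares of all rows were not counted. Its averages were 7.04 ± 0.34 in control birds (SD, n as above), 6.45 ± 0.38 at 1 h, 6.75 ± 0.33 at 3 h, 6.89 ± 0.44 at 8 h, 6.92 ± 0.43 at 3 d, 6.70 ± 0.38 at 7 d and 6.58 ± 0.36 at 14 d. The within-group SDs were between 0.33 and 0.44.

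FLT1, VEGF receptor 1, binds VEGFA, VEGFB and PlGF and in its soluble form traps VEGFA. It averaged 6.26 ± 0.23 in control birds (SD, n as above), 6.21 ± 0.23 at 1 h, 6.12 ± 0.24 at 3 h, 6.43 ± 0.17 at 8 h, 6.46 ± 0.31 at 3 d, 6.36 ± 0.19 at 7 d and 6.29 ± 0.21 at 14 d. No difference from control passed, and the difference at 3 d, 0.21 with a 95% interval of -0.08 to 0.49, had an adjusted p of 0.639. The F test of FLT1 over any duration did not pass as deposited (adjusted p = 0.237). On the centred scale it passed (adjusted p = 0.0128, with 60% of all rows passing). The group ranges overlapped with control in all 6 comparisons. The 8 h birds had 0.31 more than the 3 h birds (adjusted p = 0.0999, with 31.9% of all rows called at that step). On the centred scale that difference was 0.45 and passed (adjusted p = 0.0207, with 14.3% of all rows called higher), and without 3 h replicate 2 on the same scale it was 0.35 (adjusted p = 0.0863).

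EMCN, the endothelial surface sialomucin, rose at 7 d over 3 d and at 14 d over control, and both the 7 d and 14 d groups were labelled singing. The 7 d birds lay between 6.20 and 6.61 with a median of 6.38, against 5.40 to 5.96 with a median of 5.68 in the 3 d birds, and the groups did not overlap, as was the case for 4% of all rows in that direction. EMCN rose by 0.72 ± 0.21 (SE) at 7 d over 3 d, a 1.65-fold change (adjusted p = 0.0177, where 10.9% of all rows were called higher). The step was 0.61 on the centred scale (adjusted p = 0.0297, with 5.69% of all rows called higher), and it passed in all 39 fits that left out 1 array. With the L or R letter of the array titles as a term it did not pass (adjusted p = 0.0967). Of all 26061 rows, 966 were called at that step with the letter as a term and 4227 without it. The 3 d and 7 d arrays also had title numbers of different ranges, which cannot be told apart from duration.

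Against control, EMCN differed by 0.58 at both 7 d and 14 d. The 7 d birds, at 6.20 and above, were all above the control birds, which had 5.98, 5.64, 6.09, 5.80 and 5.54, and 4.24% of all rows separated 7 d above control in this way. The 14 d birds, with 5.81 at the lowest, 6.40 at the median and 6.74 at the highest, overlapped with control birds. The 14 d difference passed (adjusted p = 0.0258, SE 0.22) and the 7 d difference did not (adjusted p = 0.0838, SE 0.22). The 7 d difference passed without 3 h replicate 2 (adjusted p = 0.0310, with 10.1% of all rows called higher, and 4.65% with that array). It also passed without 1 h replicate 6 (share of all rows not counted). Arrays of other groups enter through the shared estimate of the spread and the adjustment over all rows, and these parts were not separated. On the centred scale the 14 d difference was 0.36 (adjusted p = 0.146). Leaving out control replicate 2 or 5, or 14 d replicate 2 or 5, also ended the 14 d call.

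The lowest EMCN value was that of 1 h replicate 6, with 4.72 where the other 5 birds at 1 h lay at 5.99 or above. EMCN averaged 5.81 ± 0.23 in control birds (SD, n as above), 5.95 ± 0.63 at 1 h, 5.84 ± 0.59 at 3 h, 5.55 ± 0.10 at 8 h, 5.67 ± 0.21 at 3 d, 6.39 ± 0.16 at 7 d and 6.39 ± 0.34 at 14 d. The 7 d and 14 d means differed by -0.00 ± 0.21 (SE), 14 d minus 7 d, with a 95% interval of -0.42 to 0.42. Between the 7 d and 14 d birds together and the 1 h and 3 h birds together, groups whose title numbers share a range, the difference was 0.50 ± 0.15 (SE) and did not pass (adjusted p = 0.0818), and was 0.37 without 3 h replicate 2 (adjusted p = 0.117). Over the 39 fits without 1 array it ran between 0.37 and 0.56, was 0.38 without 1 h replicate 6, and passed in 2 of them (0.56 without 14 d replicate 4 and 0.55 without 1 h replicate 1). Among the 7 genes, none passed that comparison, in which 1.92% of all rows did, and EMCN alone had an unadjusted p under 0.05.

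SOX18, a transcription factor with an HMG box that acts in endothelial differentiation, had the largest rise at 14 d among the 7 genes, on both the deposited and the centred scale. The 14 d birds lay between 9.02 and 9.40 with a median of 9.15, against 8.16, 8.58, 8.49, 8.50 and 8.14 in control birds. All 14 d birds were above all control, 8 h and 3 d birds, also on the centred scale. As deposited, the same 27.7% of all rows had 14 d above control. The shares for 8 h, for 3 d and for the centred scale were not counted. SOX18 rose by 0.78 ± 0.18 (SE) at 14 d, a 1.72-fold change with a 95% interval of 0.41 to 1.15 (adjusted p = 0.00117). On the centred scale the change was 0.55 (adjusted p = 0.00575).

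SOX18 averaged 8.38 ± 0.21 in control birds (SD, n as above), 8.77 ± 0.38 at 1 h, 9.02 ± 0.50 at 3 h, 8.54 ± 0.15 at 8 h, 8.37 ± 0.21 at 3 d, 8.63 ± 0.41 at 7 d and 9.16 ± 0.14 at 14 d. In order of means, from low to high, the groups were 3 d, control, 8 h, 7 d, 1 h, 3 h and 14 d, the same without 3 h replicate 2, and each neighbouring pair overlapped. At 7 d the birds ran between 8.24 and 9.34, and 1 of them reached the 14 d range. SOX18 rose by 0.53 ± 0.17 (SE) at 14 d over 7 d (adjusted p = 0.0380), and by 0.41 on the centred scale, where it did not pass (adjusted p = 0.0659). The 14 d over 7 d call was lost in 8 of the 39 fits without 1 array (14 d replicates 2, 3, 4 and 6, and 7 d replicates 1, 3, 4 and 5).

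TAL1, a basic helix-loop-helix factor needed for blood formation and present in endothelial cells, had the row nearest the dim end of the arrays. The 14 d birds lay between 4.19 and 4.68 with a median of 4.56, against 3.88, 4.23, 4.33, 4.29 and 4.05 in control birds, and the groups overlapped. TAL1 rose by 0.35 ± 0.15 (SE) at 14 d, with an adjusted p of 0.0486. The call was lost in 25 of the 39 fits without 1 array, and on the centred scale the change was 0.12 (adjusted p = 0.517). TAL1 averaged 4.16 ± 0.19 in control birds (SD, n as above), 4.20 ± 0.19 at 1 h, 4.50 ± 0.52 at 3 h, 4.31 ± 0.15 at 8 h, 4.31 ± 0.13 at 3 d, 4.36 ± 0.20 at 7 d and 4.50 ± 0.18 at 14 d.

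**Figure D2:**
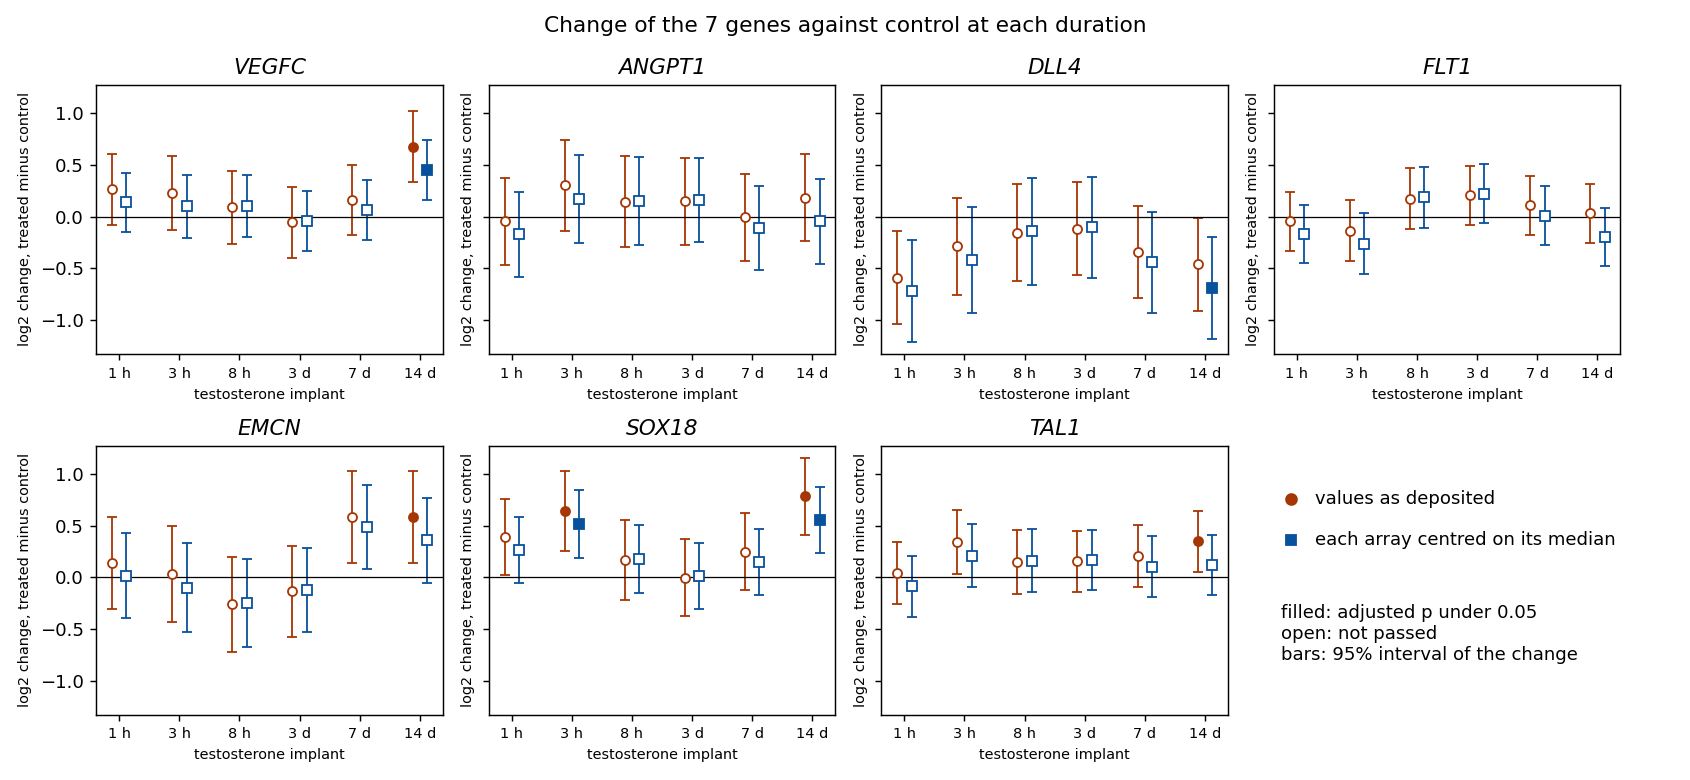
Change of each of the 7 genes from control (vertical axis, log2, testosterone minus control) at each of the 6 durations (horizontal axis), as deposited and on the centred scale; bars are 95% intervals and filled marks passed. At 14 d SOX18 (0.78 deposited, 0.55 centred) and VEGFC (0.67 and 0.45) stay above 0 on both scales, while EMCN (0.58 and 0.36) and TAL1 (0.35 and 0.12) pass only as deposited.

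At 3 h, replicate 2 was the highest of its group for 4 genes (VEGFC, ANGPT1, SOX18 and TAL1) and the lowest for 3 (DLL4, FLT1 and EMCN). VEGFC had 6.27, 7.29, 6.15, 6.24 and 6.24 in the 5 birds at 3 h, and SOX18 had 9.02, 9.89, 8.77, 8.67 and 8.75. Replicate 2 stood far above the others for VEGFC, whose other 4 values lay within the range of the control birds. For SOX18 all 5 birds lay above all control birds, as was the case for 9.21% of all rows at 3 h. The 4 birds without replicate 2 thus did as well, and the share of all rows without that array was not counted. EMCN had 6.06, 4.82, 5.87, 6.18 and 6.27, and TAL1 had 4.29, 5.36, 4.55, 4.07 and 4.20, so replicate 2 was low for the first and high for the second.

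Without that array the SOX18 change at 3 h was 0.43 ± 0.17 (SE), against 0.64 ± 0.19 with it, and it no longer passed (adjusted p = 0.104 without it, and 0.0157 with it). The change of VEGFC was 0.01 without it and 0.23 with it, that of TAL1 0.12 and 0.34, and that of ANGPT1 0.22 and 0.30. EMCN moved the other way, with a difference of 0.29 without the array (adjusted p = 0.359) and 0.03 with it. DLL4 differed from control by -0.17 without it and by -0.29 with it, and FLT1 by -0.04 and -0.14. The 3 h averages without it were 6.22 ± 0.05 for VEGFC, 8.80 ± 0.15 for SOX18, 6.09 ± 0.17 for EMCN and 4.28 ± 0.21 for TAL1 (SD, n = 4). Over all rows, 9.55% were called at 3 h without the array and 28.6% with it, and of the 7 genes 0 were called without it and 1 with it. TAL1 at 3 h passed without replicate 4 (0.45) or replicate 5 (0.41), with replicate 2 kept in (shares of all rows not counted). The calls of VEGFC, SOX18, EMCN and TAL1 at 14 d had adjusted p-values of 0.000239, 0.000188, 0.00875 and 0.00824 without it, with 43.2% of all rows called higher.

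**Figure D3:**
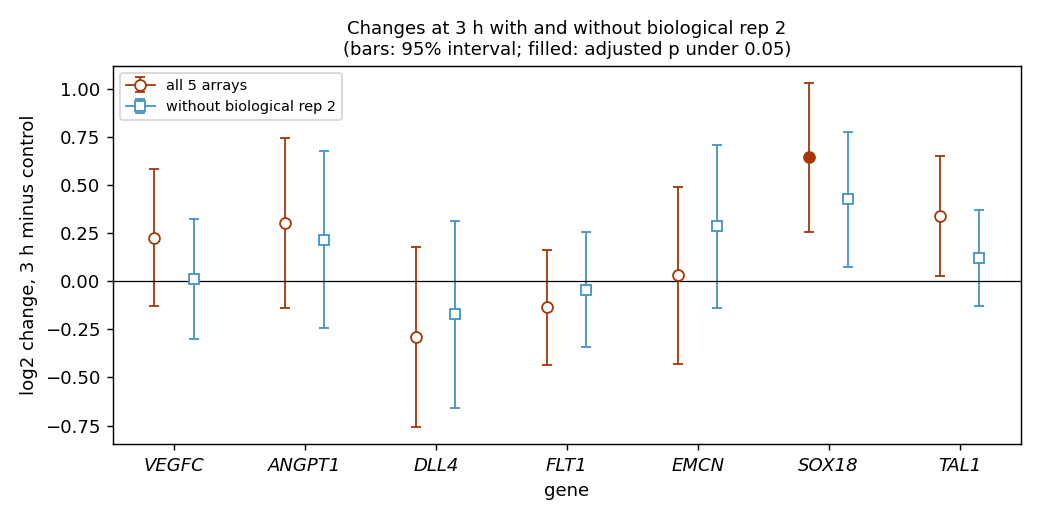
Change of each of the 7 genes at 3 h from control (log2, 3 h minus control) on the vertical axis, by gene, with all 5 birds and without replicate 2; bars are 95% intervals and filled marks passed. SOX18 is 0.64 with the array and 0.43 without it, VEGFC 0.23 and 0.01, and EMCN 0.03 and 0.29.

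Between neighbouring durations, 3 of 35 comparisons passed: EMCN at 7 d over 3 d, with 16.2% of all rows called at that step, and VEGFC and SOX18 at 14 d over 7 d, with 14% called. None of the 7 genes passed at 3 h over 1 h (5.46% of all rows called), at 8 h over 3 h (31.9%) or at 3 d over 8 h (0.414%). At 8 h over 3 h the differences nearest the threshold were those of SOX18, -0.48 (adjusted p = 0.0526), and FLT1. The SOX18 difference passed in 7 of the 39 fits without 1 array, with 0.0304 as the lowest adjusted p. Without 3 h replicate 2 the SOX18 step was -0.26 (adjusted p = 0.281) and the EMCN step -0.55 (adjusted p = 0.0571). At 3 d over 8 h the 7 differences lay between -0.17 and 0.13. For EMCN, 14 d and 7 d were alike in their means, whereas the VEGFC and SOX18 differences were at 14 d over 7 d, and whether these gene patterns differ from each other was not tested.

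Of the 4 genes that rose at 14 d, SOX18, VEGFC and EMCN also moved with the array median. Over the 38 arrays without 3 h replicate 2, the correlation with the array median was 0.89 for SOX18, 0.84 for VEGFC and 0.75 for EMCN (Pearson's r, given as a description). After group means were removed it was 0.81, 0.81 and 0.62. For TAL1 it was 0.37 over arrays, for ANGPT1 0.19, for FLT1 -0.06 and for DLL4 -0.49. Both values come from the same array and its normalisation, and 44.4% of all rows had a correlation over 0.5, with a median of 0.39.

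With the array median as a term in the fit, none of the 7 genes passed any comparison. The 14 d change was then 0.12 for VEGFC (adjusted p = 0.859), 0.15 for SOX18 (adjusted p = 0.825), 0.05 for EMCN (adjusted p = 0.971) and -0.07 for DLL4 (adjusted p = 0.965), and the EMCN step at 7 d over 3 d was 0.45 (adjusted p = 0.154). Of all rows, 0.706% were called at 14 d in that fit and 9.37% at 7 d over 3 d. Since all 14 d medians were above all control medians, group and array median cannot be told apart at 14 d. The part of the array median in these results was not tested.

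**Figure D4:**
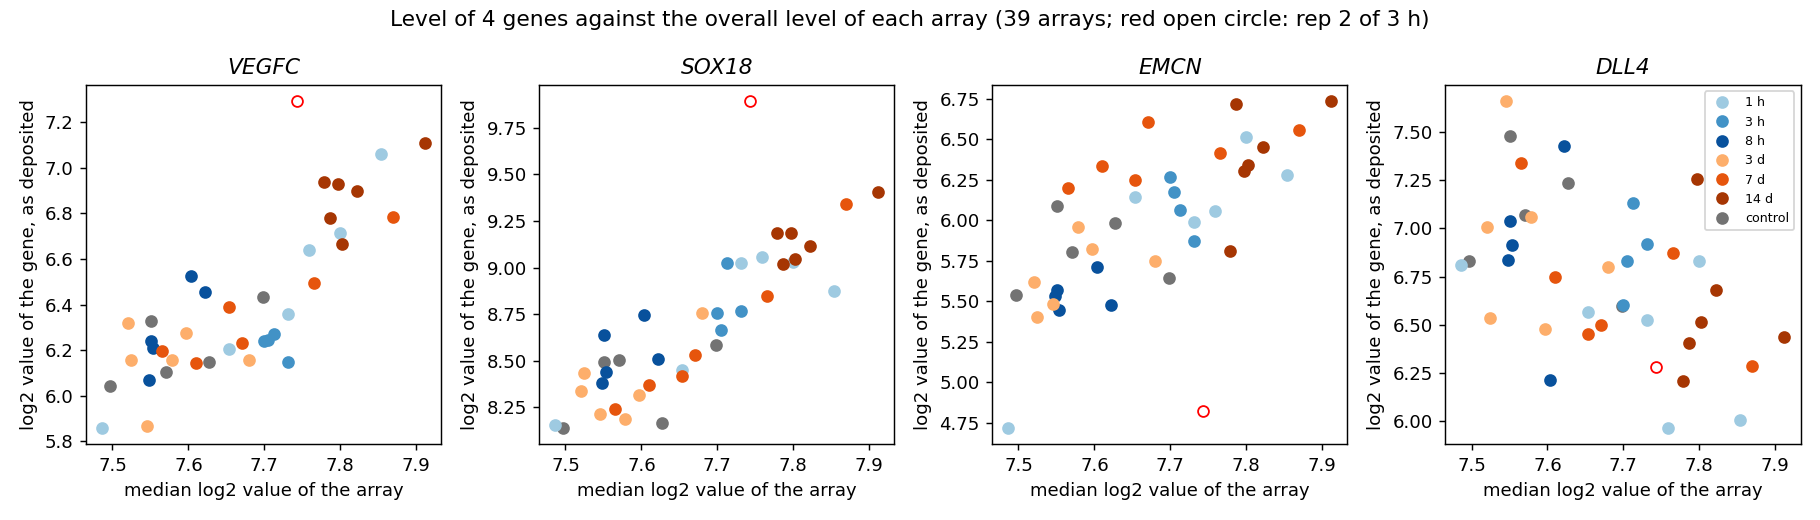
Log2 signal of VEGFC, SOX18, EMCN and DLL4 (vertical axes) against the median log2 signal of the array (horizontal axes), 1 point per array, coloured by group. SOX18, VEGFC and EMCN lie higher on arrays with a higher median (r of 0.89, 0.84 and 0.75 over 38 arrays), DLL4 lies lower (-0.49), and the 14 d medians, between 7.78 and 7.91, lie above those of all control arrays and overlap with those of 1 h and 7 d.

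On the centred scale, the members differed in how they varied together over the 38 arrays. VEGFC and SOX18 had a correlation of 0.67, and 0.52 within groups. DLL4 ran against both, at -0.55 with VEGFC and -0.55 with SOX18, and -0.46 and -0.40 within groups. FLT1 had -0.51 with SOX18, and VEGFC with EMCN had 0.37. All 21 pairs share the arrays and the centring, and no test was made. After centring, the correlation with the array median over the same 38 arrays was 0.79 for SOX18, 0.67 for VEGFC and 0.59 for EMCN. It was -0.67 for DLL4 (-0.49 before centring) and -0.50 for FLT1 (-0.06 before centring). For ANGPT1 it was -0.15 and for TAL1 -0.23. The part of the array median in the pair values, and in the likeness to other genes, was not tested.

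**Figure D5:**
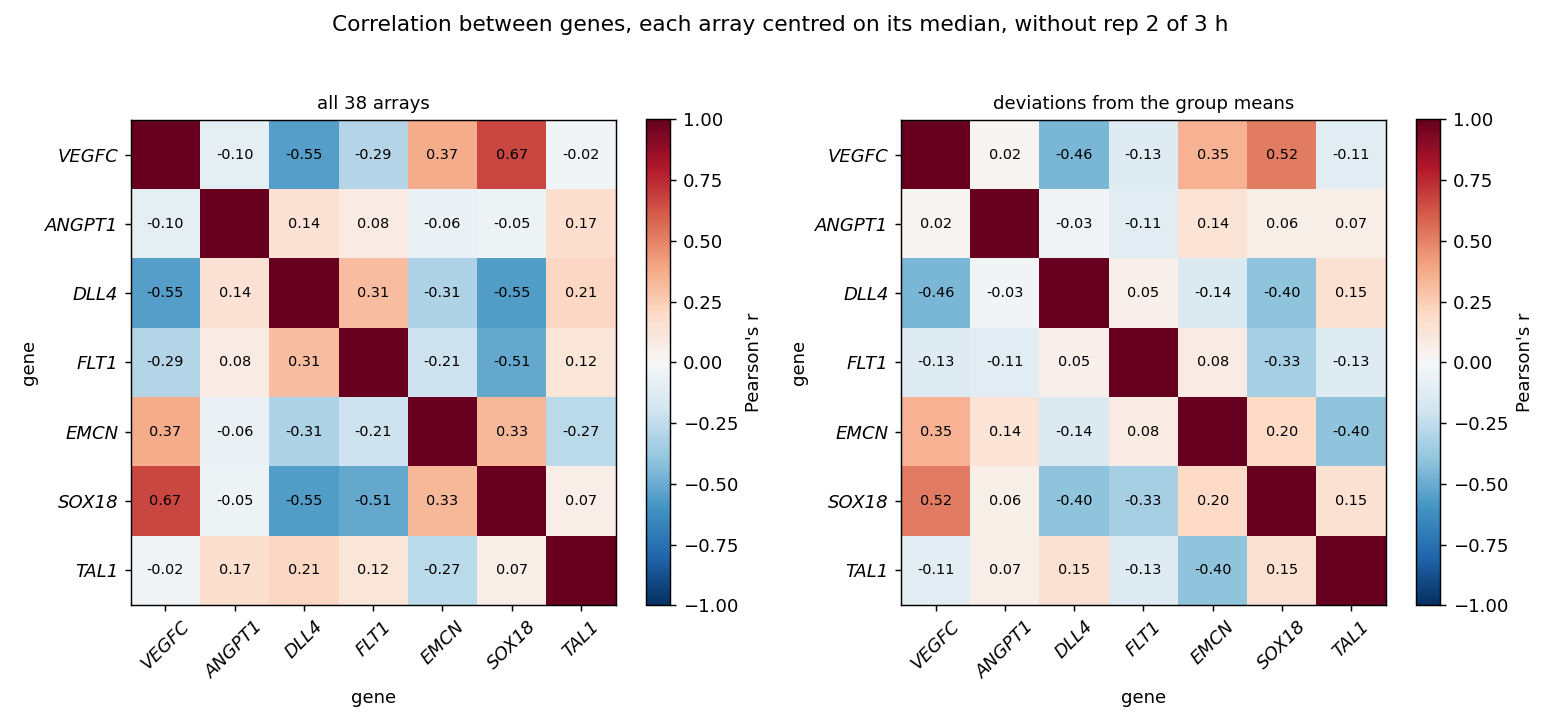
Pearson's r between the 7 genes over 38 arrays (centred signal, without 3 h replicate 2) for each of the 21 pairs, over all arrays on the left and as deviations from the group means on the right. VEGFC and SOX18 have the largest positive value on the left (0.67), and DLL4 has -0.55 with each of them there.

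The genes most like each member, by Pearson's r of centred signal over the same 38 arrays among 2229 genes with a symbol, were found by the same rule for all members. SOX18 was most like TUBGCP3, a gene of the gamma-tubulin complex (0.91), and THAP5 (0.90), and VEGFC was most like G0S2, an inhibitor of the lipase ATGL (0.89), and the mitochondrial ribosomal protein gene MRPS34 (0.83). DLL4 was most like YME1L1 and HERPUD2 (0.72 each), and FLT1 was most like LUC7L2 and CLDND1 (0.71 each). EMCN followed OLA1 (0.67) and MXD3 (0.66), TAL1 followed ZNF106 (0.65) and GAB2 (0.54), and ANGPT1 followed SLIT3 (0.53) and PARK7 (0.51). With 3 h replicate 2 included, the values, in the order named, were 0.94 and 0.89 for SOX18 and 0.79 and 0.87 for VEGFC. They were 0.69 and 0.72 for DLL4, 0.75 and 0.50 for FLT1, and 0.31 and 0.45 for EMCN. For TAL1 they were 0.62 and 0.45, and for ANGPT1 0.49 and 0.40. Over the 38 arrays SOX18 had 66 genes with a correlation over 0.8 and VEGFC had 10, while the other 5 members had 0.

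Other genes of vessel growth and its regulation were read from lists of 138 genes, of which 16 besides the 7 members were measured. At 14 d 6 of the 16 were called higher and 1 lower, near the 39.1% and 10.9% of all rows. At 3 h 3 were called higher (19.8% of all rows) and 2 lower (8.81%), at 1 h 1 was called higher (5.79%), and at 8 h, 3 d and 7 d 0 were called in either direction. Their median change at 14 d was 0.25, close to the 0.22 of all rows, and on the centred scale 0.02, with 3 called higher and 1 lower. No other VEGF ligand or receptor of the list, and no endothelial surface gene besides EMCN, had a named row here.

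Of the 5 measured genes of the response to low oxygen, 3 rose at 14 d, DDIT4, PGK1 and EGLN3, where 39.1% of all rows were called higher. After centring 2 did, without EGLN3, where 20.3% of all rows were called higher. DDIT4, an inhibitor of mTORC1 that stress induces, rose by 0.93 (adjusted p = 0.00167), and PGK1, a glycolytic enzyme, rose by 0.73 (adjusted p = 0.00140), both also on the centred scale. SLC7A5, the large neutral amino acid carrier of the blood-brain barrier, rose by 0.57 at 14 d (adjusted p = 0.00149), also on the centred scale. With all arrays, it was also called higher at 3 h (0.50), lower at 8 h over 3 h (-0.48) and higher at 7 d over 3 d (0.42), on both scales. As deposited, 19.8%, 22.4% and 10.9% of all rows were called in those directions. FOXC2, a transcription factor of lymphatic and arterial vessels, rose by 0.51 at 14 d (adjusted p = 0.0119) and VASH2, a gene of the vasohibin family, by 0.37 (adjusted p = 0.00576), and neither passed on the centred scale. IGF1R, the IGF1 receptor, fell by 1.20 at 14 d (adjusted p = 0.00120) and by 1.45 at 3 h (by 0.96 without replicate 2). With all arrays, it passed at both on both scales.

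At 3 h, TIMP3, an inhibitor of metalloproteinases that also blocks VEGFA at its receptor KDR, fell by 0.93 (adjusted p = 0.00216), and by 0.83 without replicate 2 (adjusted p = 0.0108). KLF2, a factor that responds to blood flow in endothelial cells, rose by 0.46 at 3 h (adjusted p = 0.00830) and by 0.36 without replicate 2 (adjusted p = 0.0466), and did not pass on the centred scale. DES, the muscle filament gene used for mural cells, and ANGPTL2 did not pass at any duration.

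The markers of endothelial cells and of other cell types were thinly measured. Of the endothelial surface list only EMCN (1 of 18) had a row, of mural cells 1 of 13, of meninges and ependyma 2 of 10 and of microglia 0 of 10. The mean of 2 of 17 blood cell markers lay between 5.99 and 6.71 in 14 d birds and between 5.80 and 7.41 in control birds. The mean of 5 of 12 neuronal markers lay between 10.19 and 10.41 in 14 d birds and between 9.95 and 10.33 in control birds, overlapping. Of these 5, NEFM rose by 0.83 at 14 d (adjusted p = 0.00336) and ELAVL4 fell by 0.37 (adjusted p = 0.00142), and on the centred scale GAD1 fell as well (by 0.34, adjusted p = 0.0314). Of all rows, 39.1% were called higher and 10.9% lower at 14 d, and 20.3% and 22.8% on the centred scale. The mean of 4 of 9 astrocyte markers lay between 6.73 and 7.01 in 7 d birds and between 6.57 and 6.61 in control birds, without overlap, as EMCN also did at 7 d, but on the centred scale the astrocyte ranges overlapped (-1.14 to -0.56 at 7 d and -1.09 to -0.91 in control birds). At 7 d 1 of the 4, AQP4, was called higher (0.39, adjusted p = 0.0480), where 4.65% of all rows were, and 0 on the centred scale (2.57% of all rows). The mean of the 4 lay between 6.42 and 6.63 in 3 d birds, below all 7 d birds, with overlap on the centred scale. How often means of 4 rows separate in this way was not counted. At 7 d over 3 d, the step at which EMCN passed, 10.9% of all rows were called higher, and 5.69% on the centred scale. There 1 of the 4 was called higher on each scale, and their median change was 0.33 as deposited. At 14 d 0 were called higher and 1, GJA1, lower (by 0.31, adjusted p = 0.0368), with 2 lower on the centred scale. The shares of all rows at 14 d are those given for the neuronal markers. No marker of these lists is at 0, since the signal has no zero on this scale, and their part in the results was not tested.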

How the data were processed

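HVC expression was measured on Affymetrix arrays, 39 samples in 7 groups. The deposited table holds 26061 rows of log2 values that the authors had already processed. Affymetrix Expression Console and the package affy were named per the submitters' processing notes, with no version, and the sources used here do not name the normalisation. Groups were taken from the labels. Rows were named by unversioned RefSeq accession (assembly bTaeGut7.mat, names only): 2471 rows matched and 23590 did not. All 39 arrays were fitted in 1 model with limma 3.58.1 (R 4.3.3), with Benjamini-Hochberg adjustment over all rows and a threshold of 0.05. Plots used matplotlib 3.10.9 and pandas 2.3.3 under Python 3.11.15. The fit was tested on simulated data with independent noise in each row. Those data had no shift of whole arrays and no outlying array, so the simulation does not bear on these features. Precision is limited by the number of arrays. The p-values set group differences against the spread between arrays within groups, estimated over all 7 groups together. In comparisons with control, at 8 h over 3 h and at 7 d over 3 d, they cannot separate duration from the range of title numbers.

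Named genes were to be the 7 members, up to 2 further genes per list with the largest change among those that passed, and the 2 genes most like each member. Beyond that rule, the low oxygen and neuron lists had more than 2 named genes, and DES and ANGPTL2 were named although they did not pass. The members and lists were chosen with earlier results of these data known. Alternatives were quantile normalisation, centring, a filter on dim rows, array median and title letter as terms, a fit of the groups compared, a replicate block, empirical Bayes with trend and robust options, a stricter threshold and leaving out each array. Centring together with leaving out 3 h replicate 2 was added after seeing the data. The result of 1 marker list is not reported here.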

Additional observations from a re-analysis of the deposited data

Results flagged for a closer look

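In 49 groups of values (7 genes, 7 groups), 5 had an array far from the others by Dixon's test, where chance gives about 1 in 20. VEGFC was 7.29 in 3 h replicate 2, with the next value at 6.27, and EMCN was 4.82 in the same array, with the next at 5.87. EMCN was 4.72 in 1 h replicate 6, with the next at 5.99, and that array had the lowest median of all, 7.49. VEGFC was 5.87 in 3 d replicate 5, with the next at 6.15. TAL1 was 3.84 in 1 h replicate 5, with the next at 4.17.

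A further 3 results differed between durations by a test of the difference itself. EMCN was 0.72 higher at 7 d than at 3 d (limma, adjusted p = 0.0177), groups whose title numbers lay in different ranges. At that step 16.2% of all rows were called. VEGFC was 0.51 higher at 14 d than at 7 d (adjusted p = 0.0312), and SOX18 0.53 higher at 14 d than at 7 d (adjusted p = 0.0380), where 14% were called. The VEGFC and SOX18 steps did not pass on the centred scale. They were lost in 7 (VEGFC) and 8 (SOX18) of the 39 fits without 1 array. With the array median as a term, none of the 3 passed.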

How the results depend on the processing

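Of the 5 calls against control, 2 were left at an adjusted p under 0.01, 3 with the filter on dim rows, which leaves out EMCN, ANGPT1 and TAL1, and 0 with the array median as a term. Of the 3 calls between neighbouring durations, 0 were left at an adjusted p under 0.01 and 0 with the array median as a term. Over any duration the 3 calls (67.9% of all rows passing) became 0 with the array median as a term. They became 5 with quantile normalisation, with centring (60% of all rows), and with centring without 3 h replicate 2 (69.2%). With centring, DLL4 and FLT1 were the further genes. The shares of all rows with quantile normalisation and with the array median as a term were not counted for this test. No gene was called at 7 d and 14 d against 1 h and 3 h (limma), where EMCN alone had an unadjusted p under 0.05. Leaving out 1 array gave 3 to 8 calls against control, 1 to 4 between neighbours, 3 to 3 over any duration and 0 to 1 for the singing against the 1 h and 3 h groups. The share of all rows called moved as well, and among these fits it was counted only without 3 h replicate 2. In that fit it was 19.7% at 1 h, 9.55% at 3 h, 16.2% at 7 d and 57.5% at 14 d. With that array it was 8.44%, 28.6%, 7.87% and 50%. VEGFC and SOX18 at 14 d passed in all 39 fits without 1 array, and SOX18 at 3 h was lost without 3 h replicate 2. SOX18 at 3 h was also lost when only the groups compared were fitted (adjusted p = 0.103). That fit called 247 of all 26061 rows at 3 h, against 7459 with all groups in the fit. DLL4 at 14 d passed with quantile normalisation (-0.71, share of all rows not counted) and when only the groups compared were fitted (adjusted p = 0.0462). At 14 d the latter fit called 15312 of all rows, against 13034 with all groups. Among single gene results, the other alternatives left 761 on the same side of the threshold, moved 12 past it and 31 back, and no direction of a call was reversed. With the replicate number as a block, calls were 4 against control, 4 between neighbours, 3 over any duration and 0 for the last comparison. At 14 d against control, 13000 of all 26061 rows were called with the block and 13034 without it. At 8 h over 3 h these counts were 8689 and 8307. The block ended the TAL1 call at 14 d (adjusted p = 0.0665) and brought SOX18 at 8 h over 3 h past the threshold (-0.48, adjusted p = 0.0333). Deviations from the group means had a mean r of 0.03 over 111 pairs of same-numbered arrays and -0.004 over 540 other pairs. An r over 0.1 was found in 32 of the 111 pairs and in 126 of the 540 others. Of the 39 arrays, 12 were closest to their own number, and how many would be so by chance was not counted. Whether the numbers pair the samples was not tested. Each gene had 1 row, so averaging rows gave the same values. Dim rows and 5 or 6 arrays a group limit what can be seen.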
